A study of Homo sapiens with 14 samples.

Results

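The genes described here are 39 genes of DNA replication and nucleotide synthesis, followed through 14 RNA-seq libraries of U2OS cells, an established human osteosarcoma line. They were chosen by name: the subunits of the MCM helicase and the GINS complex, the factors that load and start the helicase, the replicative polymerases and primase, the sliding clamp and its loader, enzymes that join and protect new strands, the enzymes that make deoxynucleotides, and the proteins that rebuild chromatin behind the fork. All 39 were found among the 22919 gene symbols that both deposited expression tables share, all 39 were above 0 FPKM (sequenced fragments corrected for gene length and for library depth, so that levels of different genes can be set side by side) in each of the 14 libraries, and all 39 passed the filter on low values used for testing.

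The study exposed the line to 9 small molecules, and its title concerns H3K4 demethylation and autophagy. DMSO, the solvent, was given at 0.5% by volume, for a time the labels do not state. Cells received 2-PCPA (tranylcypromine, an inhibitor of the demethylase KDM1A and of monoamine oxidases) at 1 mM for 12 h, the EZH2 inhibitor GSK343 at 10 μM for 24 h, or the mTOR inhibitor Rapamycin at 5 μM for 24 h, with 2 libraries each and 2 for DMSO. With 1 library each, cells received the KDM6 inhibitor GSK-J4 at 20 μM for 12 h, BIX-01294 at 5 μM for 12 h and BRD4770 at 20 μM for 24 h (both directed at the EHMT methyltransferases), the histone deacetylase inhibitors SAHA at 1 μM and VPA at 20 μM for 24 h, and UNC1215, a ligand of the methyl-lysine reader L3MBTL3, at 50 μM for 24 h. All samples were the same unmodified line in the same medium, and nothing in the labels marks the replicates as separate cultures. The p-values thus measure the spread between these libraries only, and that spread may be technical.

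Replication is prepared in G1, when ORC, CDC6 and CDT1 place the MCM2-7 ring on DNA as an inactive helicase. In S phase the ring is completed by CDC45 and GINS, primase and polymerase alpha lay down primers, and polymerases epsilon and delta extend them with the clamp PCNA, while ribonucleotide reductase, thymidylate synthase and thymidine kinase supply the building blocks. Most of these genes are targets of the E2F transcription factors, which RB holds in check until the cell commits to S phase, so their transcripts are widely used as a readout of proliferating cells, and tumour lines such as U2OS express them at high levels.

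The 250 bases before the annotated start were read for 4 members from the RefSeq promoter table (GRCh38.p14). These are the members picked in most comparisons by the rule for naming genes, with ties settled in favour of genes described throughout. They are CDT1 at chr16:88803539-88803788 (plus strand), CDC6 at chr17:40287629-40287878 (plus strand), MCM6 at chr2:135876444-135876693 (minus strand) and TYMS at chr18:657403-657652 (plus strand). Each is written 5′ to 3′ in the direction of transcription and ends at the base before the start. Capitals mark E2F-type letters (TTTGGCGC, TTTGCCGC, TTTCGCGC, TTTCCCGC or TTTGGCGG, on either strand) and the CCAAT box (CCAAT on either strand).
CDT1: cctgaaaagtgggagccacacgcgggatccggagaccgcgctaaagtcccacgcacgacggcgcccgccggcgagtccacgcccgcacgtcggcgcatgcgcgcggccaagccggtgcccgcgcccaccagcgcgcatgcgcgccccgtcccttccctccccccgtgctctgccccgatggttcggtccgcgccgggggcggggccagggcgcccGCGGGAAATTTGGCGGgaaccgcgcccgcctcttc
CDC6: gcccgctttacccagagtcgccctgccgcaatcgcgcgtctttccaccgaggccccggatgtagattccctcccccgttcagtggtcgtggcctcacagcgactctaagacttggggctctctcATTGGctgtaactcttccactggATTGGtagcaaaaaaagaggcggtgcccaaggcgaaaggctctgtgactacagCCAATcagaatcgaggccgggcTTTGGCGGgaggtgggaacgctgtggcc
MCM6: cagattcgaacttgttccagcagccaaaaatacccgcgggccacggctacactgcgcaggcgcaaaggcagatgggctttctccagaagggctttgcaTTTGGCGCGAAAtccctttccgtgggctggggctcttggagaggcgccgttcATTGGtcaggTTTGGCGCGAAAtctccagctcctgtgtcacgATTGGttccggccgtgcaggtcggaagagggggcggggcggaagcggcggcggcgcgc
TYMS: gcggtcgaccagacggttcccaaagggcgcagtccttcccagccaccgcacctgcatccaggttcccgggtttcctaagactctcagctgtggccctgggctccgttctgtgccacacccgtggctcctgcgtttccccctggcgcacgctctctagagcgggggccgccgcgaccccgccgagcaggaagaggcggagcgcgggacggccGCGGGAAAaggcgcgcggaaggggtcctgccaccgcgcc

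CDT1 carried 2 E2F-type matches side by side, at 35 and 27 bases before the start, and no CCAAT box. MCM6 carried 4, as 2 overlapping pairs read from both strands that begin 152 and 90 bases before the start, with 2 CCAAT boxes. CDC6 had 1 E2F-type match at 28 bases before the start and 3 CCAAT boxes, and TYMS had 1 E2F-type match at 39 bases. Of the 39 members 34 had a window in the table, and 15 of those 34 (44.1%) held E2F-type letters, against 1096 of all 27305 genes with a window (4.01%). The list of letters was completed with these windows in view, so the share is a description. All 4 windows printed hold such letters, which most members with a window lack. By the naming rule CDC6 and TYMS were tied with LIG1, MCM7 and POLE, which hold them. CHAF1A, GINS1, PRIM1 and RFC5, which do not, were in the same tie. CCAAT stood in 20 of the 34 (58.8%, all genes 37.0%). The letters of the CHR element, TTTGAA, which is associated with genes of G2 and mitosis, stood in 1 member, RRM1 (2.94%, all genes 16.1%). A match is not a binding site, and a window without one says nothing on whether a factor acts there.

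Replicate 1 of all 10 groups was in a table of its own and replicate 2 of 4 groups in another, so every difference was taken within a table, on the log2(FPKM + 1) scale. Library depth is unknown because FPKM holds no counts. Within its table, replicate 1 of 2-PCPA stood apart. Odorant receptor genes are silent in most tissues, yet 28.0% of 375 were above 0 there (2.40% to 6.40% in the other 9 libraries of the table), and its summed FPKM was 291956 where the others had 456039 to 531006. Its 12603 tested genes had a median difference from DMSO of −0.42, beside 0.01 in replicate 2. For that reason the members are also described relative to the all-gene median, −0.20 for 2-PCPA with both replicates. Of 8 mesenchymal markers, VIM ran from 388 to 1119 FPKM and COL1A2 was below 1 FPKM in every library. The summed mesenchymal list was 739 to 1494 FPKM in the replicate 1 table, lowest in 2-PCPA (1365 in DMSO), and 1389 to 1756 FPKM in the other; its part in the results was not tested. The summed blood list (5 genes) reached at most 1.96 FPKM and the endothelial list (2 genes) at most 0.204. The neuronal list (3 genes) reached at most 11.6 FPKM. Of 5 epithelial markers, the keratins KRT8 and KRT18 ran from 271 to 734 and from 193 to 427 FPKM. CDH1 and KRT19 were below 1 in every library. The summed epithelial list was 464 to 1162 FPKM in the replicate 1 table and 743 to 937 FPKM in the other.

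In cells given DMSO alone the members spanned a wide range of level. In the 2 DMSO libraries the clamp PCNA stood at 303 and 186 FPKM, the small subunit of ribonucleotide reductase RRM2 at 211 and 200.2, thymidylate synthase TYMS at 177 and 201, thymidine kinase TK1 at 175 and 233 and the helicase subunit MCM7 at 151 and 159. At the other end were the histone chaperone subunit CHAF1B (7.29 and 8.57 FPKM), the catalytic subunit of polymerase alpha POLA1 (9.38 and 7.86) and the polymerase delta subunit POLD3 (10.7 and 9.71). The 6 subunits of the MCM ring, which act in equal number, did not have equal transcript levels: in DMSO replicate 1 they ran from 24.4 FPKM (MCM6) to 151 FPKM (MCM7), and in replicate 2 from 27.1 to 159 FPKM for the same genes.

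With 2-PCPA, the replication genes lay lower as a group: 36 of the 39 were below DMSO in both replicates, and nucleotide synthesis genes were lowest. RRM2, TYMS, the primase subunit PRIM1, the DNA ligase LIG1 and TK1 had the lowest fold changes. The limma test called 0 of the 39 over all genes at an adjusted p of 0.05 (0.0238% of all genes were called). At an unadjusted p under 0.05, limma had 12 members lower and 0 higher, where 5.99% of all genes were lower and 1.49% higher. That count of 12 rested on single libraries: it was 2 without 2-PCPA replicate 1, 31 without 2-PCPA replicate 2, 0 without DMSO replicate 1 and 4 without DMSO replicate 2, and 5 without the replicate block. In a fit of only the 2 groups compared, 0 members were lower at that p. In the fit reported, the median SE of a member's log2 fold change was 0.25 and the 95% confidence interval reached 0.57 to either side. In RNA from whole cultures, fewer cells in S phase and less of these transcripts per cell cannot be told apart.

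Over all genes, 42.2% were lower in both replicates with 2-PCPA, and 11.5% higher. Relative to the median of all genes, 33 of the 39 members were lower in both replicates (all genes 31.8%). RPA2, a subunit of the single-strand binding protein, was higher in both. The other 5 (RFC4, POLE, CDT1, ORC6 and CHAF1A) were mixed. The member median lay 0.29 below that of all genes (−0.29), with −0.36 in replicate 1 and −0.20 in replicate 2, and −0.18 in the fit without 2-PCPA replicate 1. In replicate 2 alone, which does not rest on the library that stood apart, 36 of 39 were below DMSO (all genes 48.1%) and 37 of 39 below the median of all genes (50.0%). In replicate 1 alone, 39 of 39 were below DMSO (all genes 80.4%), and 6 were lower by at least 1 log2 (7.55% of all genes). The part of that library's shift in the values over both replicates was not tested. Low values in replicate 2 were not particular to 2-PCPA. There, 35 of 39 were below DMSO with Rapamycin (all genes 54.9%) and 30 with GSK343 (46.0%). Their member medians were −0.22 and −0.07 relative to all genes. These comparisons share 1 DMSO library, the highest of 4 for 28 members (the matching count over all genes is not given).

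**Figure D1:**
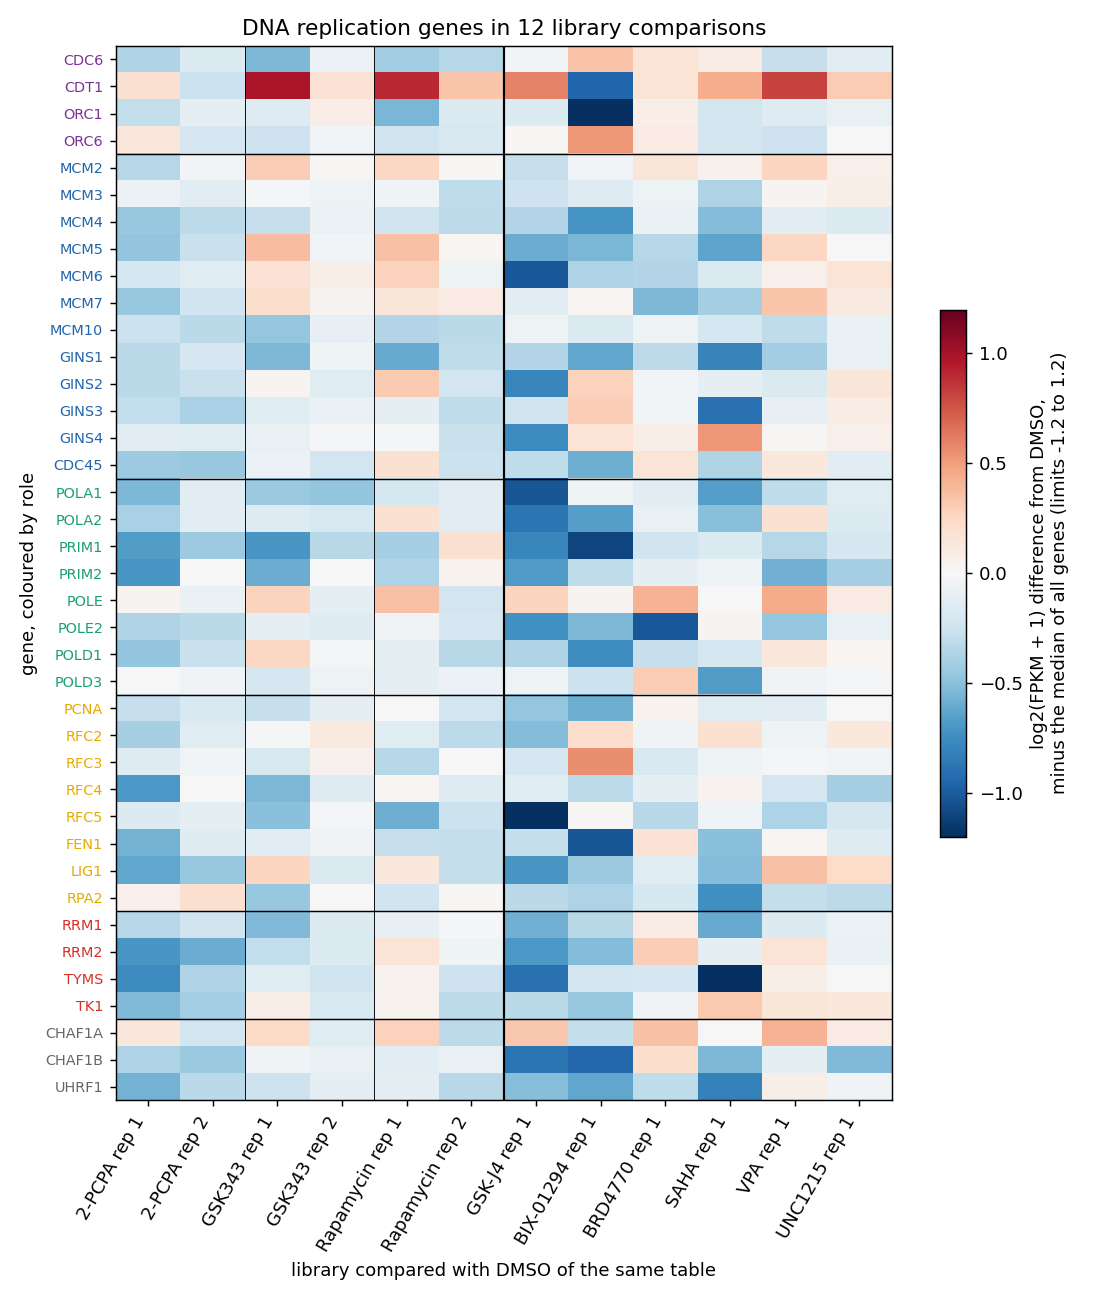
Heat map of the log2(FPKM + 1) difference from DMSO, minus the median of all genes, for 39 genes (rows, coloured and grouped by role) in 12 library comparisons (columns; replicated compounds left of the thick line). Blue is lower and red higher, with colours saturating at the limits printed on the bar. The 2 columns of 2-PCPA are mostly blue, and CDT1 is red in several replicate 1 columns.

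Nucleotide synthesis with 2-PCPA was led by RRM2, the regulated subunit of ribonucleotide reductase. It stood at 211 FPKM in DMSO and 96.6 with 2-PCPA in replicate 1, and at 200.2 and 133 in replicate 2. Each treated library was the lowest of its table among the replicated groups. The log2 fold change was −0.85 ± 0.25 (SE, n = 2 per group, 95% interval −1.42 to −0.28, limma adjusted p = 0.592). TYMS, which makes thymidylate from dUMP, went from 177 to 78.0 and from 201 to 158 FPKM (−0.76 ± 0.30). TK1, which salvages thymidine, went from 175 to 90.6 and from 233 to 176 FPKM (−0.67 ± 0.27). The large reductase subunit RRM1 went from 65.7 to 38.5 and from 60.3 to 51.2 FPKM (−0.50 ± 0.23). All 4 enzymes of the group were below the median of all genes in both replicates, with group medians of −0.61 and −0.38 relative to it.

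**Figure D2:**
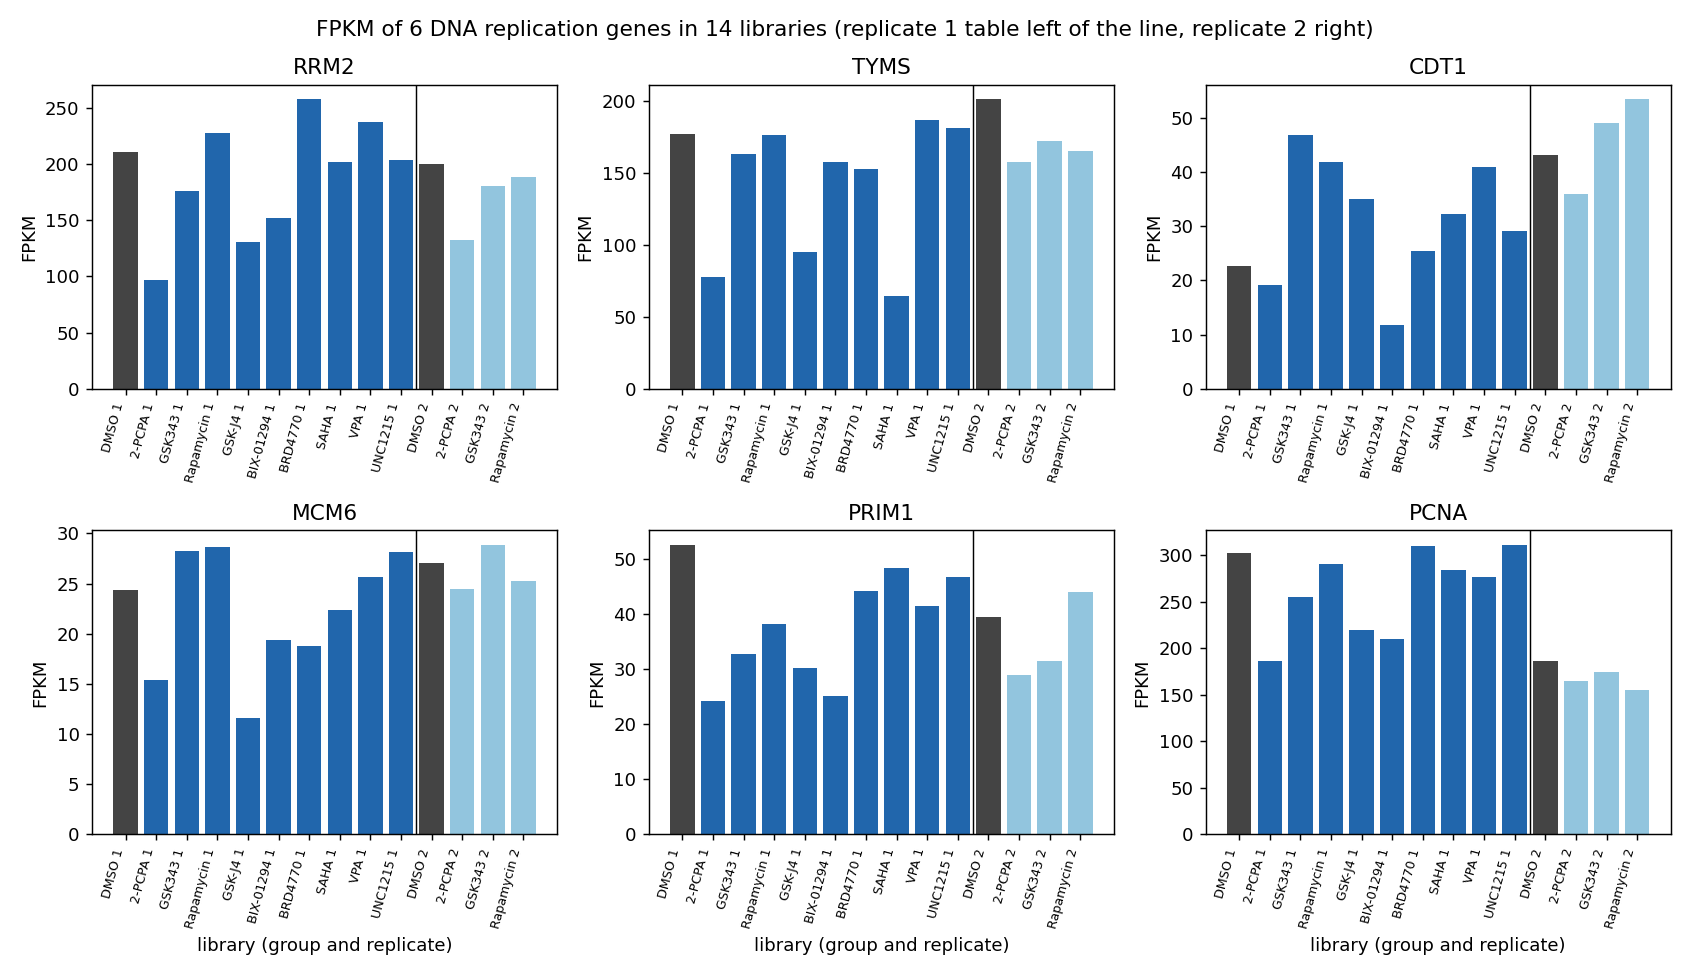
Bar charts of FPKM for RRM2, TYMS, CDT1, MCM6, PRIM1 and PCNA in each of the 14 libraries; each bar is 1 library, DMSO in dark grey, replicate 1 left and replicate 2 right of the line. RRM2 is lowest in the 2-PCPA library of each table, TYMS is lowest with SAHA at 64.5 FPKM, and CDT1 runs from 11.7 FPKM (BIX-01294) to 46.8 FPKM (GSK343) in replicate 1.

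The helicase subunits were lower with 2-PCPA than the median of all genes in both replicates, 12 of 12, with medians of −0.32 and −0.25 relative to it. MCM5 went from 56.7 to 30.2 and from 78.8 to 65.8 FPKM (−0.57 ± 0.29), and MCM4 from 56.3 to 30.3 and from 58.3 to 47.0 FPKM (−0.59 ± 0.24). MCM2 stood at 43.3 and 25.2 FPKM in replicate 1, but at 58.8 and 57.6 in replicate 2, so its fold change of −0.40 ± 0.29 rested on the library that stood apart; without it, the value was 0.055. CDC45, which joins the ring to make the active helicase, went from 41.7 to 22.6 and from 50.1 to 36.5 FPKM (−0.65 ± 0.25). It had the lowest replicate 2 difference of the helicase genes, at −0.45. Of these 12, MCM3 had the smallest difference in replicate 1 (85.2 to 60.6 FPKM) and went from 89.0 to 81.4 FPKM in replicate 2 (−0.31 ± 0.23 over both).

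Among polymerases and primase, PRIM1, which synthesises the RNA primer, went from 52.6 to 24.2 and from 39.5 to 29.1 FPKM with 2-PCPA (−0.76 ± 0.24). Its partner PRIM2 went from 39.7 to 17.8 FPKM in replicate 1 but stood at 25.8 and 25.9 in replicate 2. The 2 subunits of primase thus behaved alike in replicate 1 and apart in replicate 2. POLE, the leading-strand polymerase, had a log2 fold change of −0.23 ± 0.25, and its accessory subunit POLE2 one of −0.55 ± 0.22. The group median was −0.43 and −0.13 relative to all genes.

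LIG1, which seals Okazaki fragments, went from 39.01 to 18.4 and from 48.9 to 35.5 FPKM with 2-PCPA (−0.75 ± 0.29). PCNA went from 303 to 187 and from 186 to 165 FPKM (−0.44 ± 0.25), and the flap nuclease FEN1 from 115 to 57.7 and from 111 to 100.2 FPKM (−0.57 ± 0.27). RPA2 had the smallest difference of all 39, with 41.5 and 32.3 FPKM in replicate 1 and 34.6 and 39.9 in replicate 2 (−0.08 ± 0.23, or 0.13 relative to the median of all genes). The clamp loader subunit RFC4 was as low as 16.1 FPKM in replicate 1 (35.6 in DMSO), yet stood at 43.4 against 43.1 in replicate 2.

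The loading factors were the group least below all genes in replicate 1, at −0.08 relative to the median, and stood at −0.18 in replicate 2. CDC6 went from 50.0 to 28.7 and from 44.6 to 39.9 FPKM (−0.47 ± 0.24), and CDT1 from 22.7 to 19.2 and from 43.1 to 36.0 FPKM (−0.24 ± 0.27, or 0.022 after quantile normalization). ORC1 and ORC6, subunits of the origin recognition complex, had values of −0.41 and −0.24. Of the genes acting on chromatin, UHRF1, which brings the maintenance methyltransferase to new DNA, went from 55.3 to 27.5 and from 58.4 to 46.7 FPKM (−0.65 ± 0.26). CHAF1B had −0.61 ± 0.20, while CHAF1A, the other large subunit of chromatin assembly factor 1, had −0.25 ± 0.24.

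**Figure D3:**
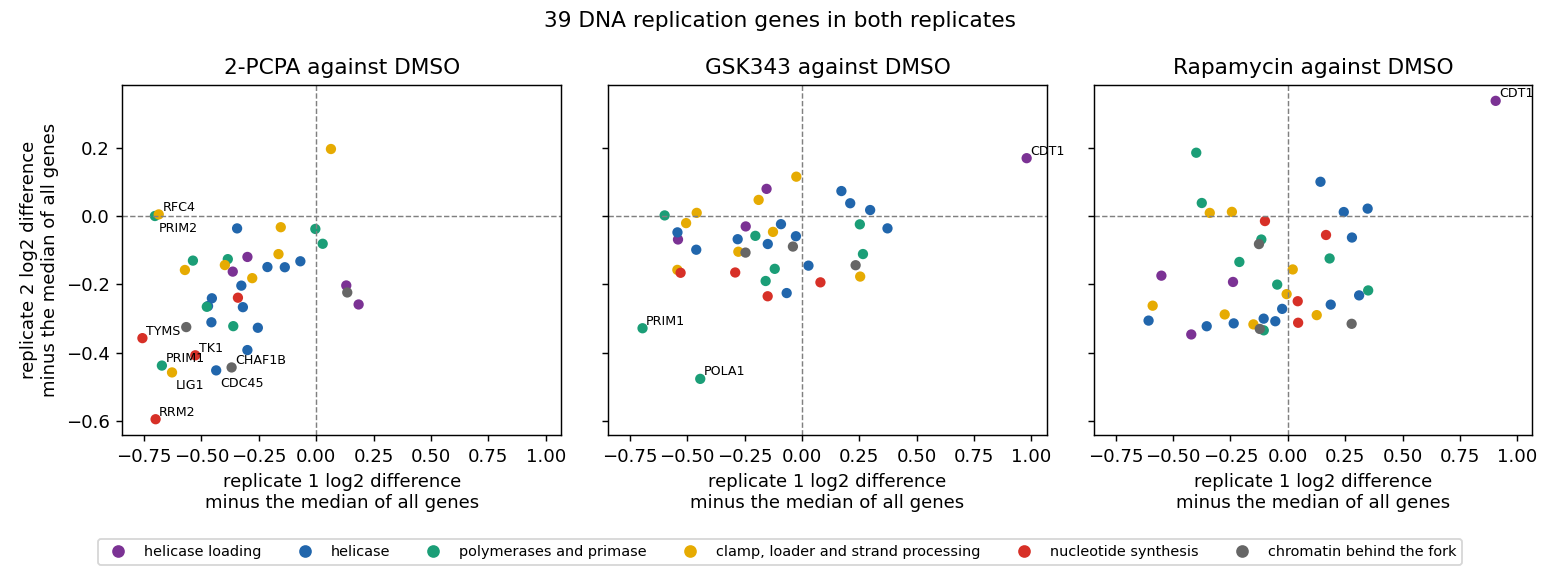
Scatter plots of the replicate 1 (x axis) against the replicate 2 difference (y axis), each log2(FPKM + 1) against DMSO minus the median of all genes, for 2-PCPA, GSK343 and Rapamycin; each point is 1 of the 39 genes, coloured by role. For 2-PCPA, 33 of 39 points lie at the lower left, with RRM2 lowest on the y axis. For GSK343 and Rapamycin the numbers are 23 and 20, with CDT1 farthest to the upper right.

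With GSK343 the group stayed close to DMSO and split by gene: 22 members were lower and 5 higher in both replicates (MCM2, MCM6, MCM7, RFC2 and CDT1), where all genes had 26.7% lower and 34.6% higher. The limma test called 0 of 39 (0.0159% of all genes), with 0 at an unadjusted p under 0.05, where 0.92% of all genes were lower and 3.3% higher. With single libraries left out, 0 to 2 were lower and 0 to 1 higher. The member median lay at −0.14 relative to all genes, with −0.15 and −0.07 in the replicates. Without GSK343 replicate 1 it was −0.078. Relative to all genes, 23 members were lower in both replicates (31.6% of all genes).

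PRIM1 had the lowest fold change with GSK343, from 52.6 to 32.9 and from 39.5 to 31.6 FPKM (−0.49 ± 0.24). POLA1, with which primase forms a complex, went from 9.38 to 6.81 and from 7.86 to 5.43 FPKM (−0.44 ± 0.26). For both genes each treated library was below DMSO of its own table. For PRIM1, DMSO replicate 1 was the highest of the 10 libraries of its table, so every compound lay below it there. RFC4 (−0.33), RRM1 (65.7 to 46.3 and 60.3 to 54.2 FPKM, −0.32) and CDC6 (50.0 to 34.9 and 44.6 to 42.9 FPKM, −0.28) followed, all larger in replicate 1. RRM2 had −0.20, TYMS −0.17, PCNA −0.17, UHRF1 −0.15 and TK1 −0.03.

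CDT1, which loads the helicase and is destroyed at the start of S phase, had the highest fold change of the 39 with GSK343 and with Rapamycin. With GSK343, replicate 1 had 22.7 FPKM in DMSO and 46.8 treated, and replicate 2 had 43.1 and 49.1 (log2 fold change 0.60 ± 0.27, interval −0.01 to 1.21, limma adjusted p = 0.949). With Rapamycin it went from 22.7 to 41.9 and from 43.1 to 53.4 FPKM (0.58 ± 0.27, interval −0.03 to 1.19, limma adjusted p = 0.753). In both, the treated libraries were above DMSO of their own table, by more in replicate 1 than in replicate 2. Both comparisons use the same 2 DMSO libraries, and CDT1 in DMSO replicate 1 ranked 3rd lowest of the 10 libraries of its table. MCM2 (0.18), MCM5 (0.19), MCM6 (0.15) and MCM7 (0.15) had small positive values with GSK343. For MCM2, MCM5 and MCM7 they turned to −0.054, −0.075 and −0.050 without GSK343 replicate 1.

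With the mTOR inhibitor Rapamycin, 25 members were lower and 2 higher (MCM7 and CDT1) in both replicates, beside 37.1% and 25.5% of all genes. The limma test called 0 of 39 (0.0159% of all genes). At an unadjusted p under 0.05 it had 1 member lower, GINS1, and 0 higher, where 3.24% of all genes were lower and 3.22% higher. With single libraries left out the count lower ran from 0 to 7, with 7 in the fit without 2-PCPA replicate 1. In a fit of only the 2 groups compared, 6 were lower and 1 higher. The member median was −0.11 relative to all genes, with −0.10 in replicate 1 and −0.22 in replicate 2, and it was −0.21 without Rapamycin replicate 1 and −0.043 without Rapamycin replicate 2. Relative to all genes, 20 members were lower in both replicates (31.8% of all genes). In replicate 1 alone 24 were, and in replicate 2 alone 31 (50% of all genes in each).

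GINS1, a subunit of the 4-part GINS complex, went from 18.0 to 11.1 and from 14.5 to 11.2 FPKM with Rapamycin (−0.50 ± 0.22, limma adjusted p = 0.752). The clamp loader subunit RFC5 went from 34.2 to 21.6 and from 33.4 to 27.0 FPKM (−0.47 ± 0.22). CDC6 went from 50.0 to 35.8 and from 44.6 to 34.0 FPKM (−0.43 ± 0.24). In these genes both treated libraries lay below DMSO of their own table. ORC1 (14.2 to 9.0 and 15.0 to 12.9 FPKM, −0.41) and MCM10, which helps to start the helicase (19.7 to 14.7 and 19.0 to 14.6 FPKM, −0.38), were similar. For GINS1 and MCM10, DMSO replicate 1 was the highest of the 10 libraries of its table. The nucleotide enzymes stayed closer to DMSO: RRM2 had 0.01 ± 0.25, RRM1 −0.10, TYMS −0.15 and TK1 −0.18. PCNA had −0.16, UHRF1 −0.27, MCM2 0.08 and MCM5 0.14.

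The replicated compounds were also compared with each other, though 2-PCPA was given for 12 h and the others for 24 h, and at different doses. Between 2-PCPA and Rapamycin, limma called 0 of 39 (0.0476% of all genes), with 6 members lower with 2-PCPA at an unadjusted p under 0.05 (9.28% of all genes) and 0 higher (2.49%). The 6 became 1 without 2-PCPA replicate 1, 26 without 2-PCPA replicate 2, 0 without Rapamycin replicate 1 and 2 without Rapamycin replicate 2. With only these 2 groups in the fit, 2 were lower. In both replicates 16 members were lower and 2 higher (all genes 37.0% and 15.3%), and relative to the median of all genes 18 were lower and 6 higher (32.2% each). RRM2 had the lowest value (−0.86 ± 0.25, adjusted p = 0.372), with 96.6 FPKM against 228 in replicate 1 and 133 against 188 in replicate 2. Between 2-PCPA and GSK343, limma called 0 (0.0317% of all genes), with 8 lower (10.9% of all genes) and 0 higher (0.762%) at an unadjusted p under 0.05. The 8 became 0 without 2-PCPA replicate 1 or GSK343 replicate 1, 28 without 2-PCPA replicate 2 and 5 without GSK343 replicate 2. With only these 2 groups in the fit, 0 were lower. In both replicates 33 were lower and 1, RPA2, higher (all genes 44.4% and 10.5%), and relative to the median of all genes 24 and 2 (31.2% each). CDT1 was lowest (−0.84 ± 0.27, adjusted p = 0.418). Without 2-PCPA replicate 2, 14 members were called in that comparison, along with 1844 of all genes, a result resting on the 2-PCPA library that stood apart. Between GSK343 and Rapamycin, limma called 0 (0.0793% of all genes), with 0 at an unadjusted p under 0.05 (1.55% of all genes lower, 4.05% higher). In both replicates 5 members were lower and 18 higher with GSK343 (all genes 19.4% and 39.6%), and relative to the median of all genes 8 and 11 (30.1% each). The lowest member was PRIM1 (−0.34 ± 0.24) and the highest POLD1, the catalytic subunit of polymerase delta (0.40 ± 0.27).

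Each of the other 6 compounds had 1 library, so their differences have no replicate check and no test. They are given against the DMSO library of the replicate 1 table, which all of them share, beside the 12804 genes whose mean there reached 1 FPKM. That DMSO library was the highest of its table for 6 members: PRIM1, PRIM2, GINS1, MCM4, MCM10 and RPA2. Every compound thus lay below DMSO for these genes in that table. GSK-J4 and BIX-01294 had the lowest member medians, −0.35 and −0.34 relative to all genes. Like 2-PCPA, both were given for 12 h, while all other compounds were given for 24 h. The time for DMSO is not stated, so compound and exposure time cannot be told apart in this ranking. SAHA had −0.21, BRD4770 −0.06, VPA −0.04 and UNC1215 −0.03. Leaving out the 2-PCPA library, GSK-J4 was the lowest of the replicate 1 libraries for 13 members, BIX-01294 for 11 and SAHA for 7. The matching counts over all genes are not given, so these are descriptions only. Of all genes, 5.96%, 6.04% and 3.83% were lower by at least 1 log2 with these compounds. With BRD4770, VPA and UNC1215 the shares were 4.84%, 1.59% and 1.26%.

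**Figure D4:**
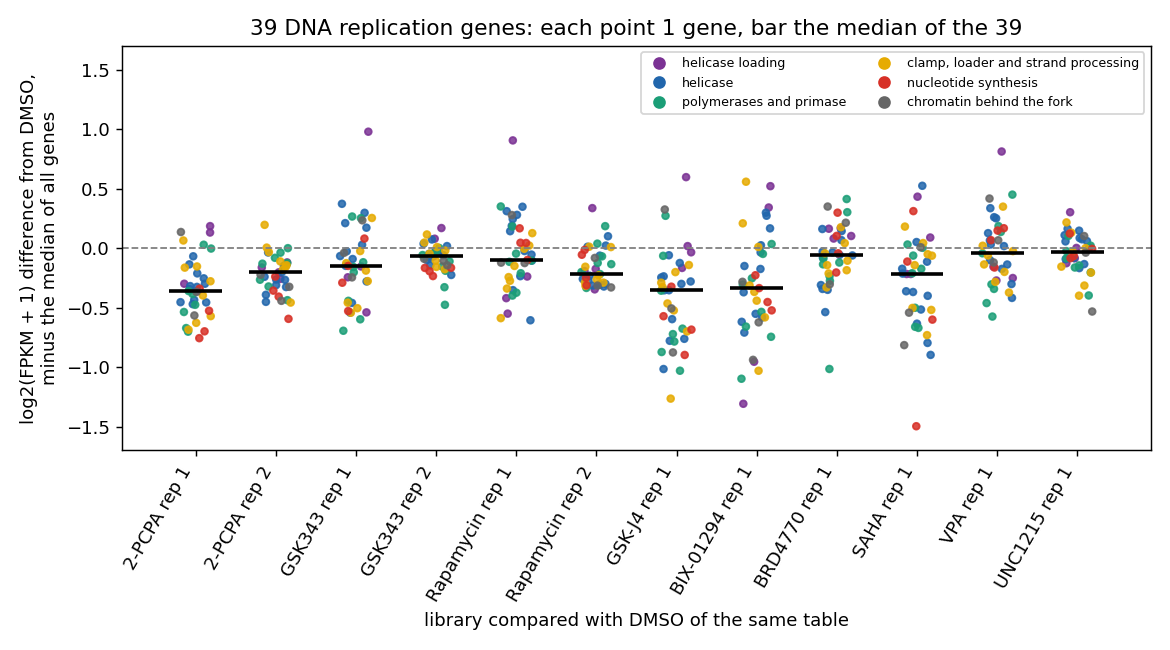
Strip plot of the log2(FPKM + 1) difference from DMSO minus the median of all genes (y axis) in 12 library comparisons (x axis); each point is 1 of the 39 genes, coloured by role, and each black bar is the median of the 39. The bars run from −0.36 (2-PCPA replicate 1) to −0.03 (UNC1215), and the replicate 2 columns are narrower than the replicate 1 columns of the same compounds.

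With GSK-J4, 35 of 39 members were below DMSO (all genes 49.0%), and 3 were lower by at least 1 log2 (5.96% of all genes), with 0 higher by as much (8.92%). RFC5 went from 34.2 to 13.7 FPKM (−1.26), POLA1 from 9.38 to 4.10 FPKM (−1.03) and MCM6 from 24.4 to 11.6 FPKM (−1.01). TYMS followed, from 177 to 94.9 FPKM (−0.89). The group of polymerases and primase had the lowest median, −0.70 relative to all genes, and loading factors stood at −0.01. The 4 members above DMSO were CDT1 (22.7 to 35.0 FPKM, 0.60), CHAF1A (18.0 to 22.8, 0.33), POLE (16.4 to 20.1, 0.28) and ORC6 (43.6 to 44.2, 0.02). RRM2 was at 131 FPKM against 211 in DMSO, MCM5 at 37.3 against 56.7, and PCNA at 220 against 303.

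With BIX-01294 the members spread in both directions, with a standard deviation over members of 0.45, the widest of the 12 comparisons. ORC1 went from 14.2 to 5.38 FPKM (−1.25) and PRIM1 from 52.6 to 25.1 FPKM (−1.04), the 2 members lower by at least 1 log2 (6.04% of all genes), and 0 were higher by as much (9.97%). FEN1 went from 115 to 58.4 FPKM (−0.97) and CDT1 from 22.7 to 11.7 FPKM (−0.90). Higher than DMSO were the clamp loader subunit RFC3 (22.7 to 35.3 FPKM, 0.62), ORC6 (43.6 to 65.6, 0.58), CDC6 (50.0 to 66.3, 0.40) and GINS3 (15.4 to 20.0, 0.36). The 4 loading factors thus lay on both sides, ORC1 and CDT1 low and ORC6 and CDC6 high.

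SAHA had 1 member lower by at least 1 log2 (3.83% of all genes): TYMS, from 177 to 64.5 FPKM (−1.44), the lowest of its table, 2-PCPA (78.0 FPKM) included. In the same library TK1, the salvage enzyme for thymidine, stood at 226 FPKM against 175 (0.37), its highest of the replicate 1 table. The remaining members at the low end were GINS3 (15.4 to 8.13 FPKM, −0.84), UHRF1 (55.3 to 32.2, −0.76) and GINS1 (18.0 to 10.4, −0.74). GINS4 was highest, from 14.6 to 22.3 FPKM (0.58), so subunits of the same GINS complex lay at both ends. CDT1 (22.7 to 32.3 FPKM, 0.49) and RFC2 (49.6 to 58.5, 0.24) were also above DMSO. No member was higher by at least 1 log2, where 7.79% of all genes were.

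BRD4770 left most members near DMSO. POLE2 was the exception, from 15.1 to 6.89 FPKM (−1.02), the 1 member lower by at least 1 log2 (4.84% of all genes), with 0 higher (5.94%). MCM7 (151 to 103 FPKM, −0.55), MCM6 (24.4 to 18.8, −0.36) and MCM5 (56.7 to 44.2, −0.35) were next. POLE (16.4 to 22.1 FPKM, 0.40), CHAF1A (18.0 to 23.0, 0.34), POLD3 (10.7 to 13.4, 0.29) and RRM2 (211 to 258, 0.29) were highest. The catalytic subunit POLE and its partner POLE2 thus lay at opposite ends of the list.

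VPA and UNC1215 had 0 members past 1 log2 in either direction (1.59% and 1.26% of all genes lower, 2.81% and 1.80% higher). With VPA, PRIM2 was lowest (39.7 to 26.5 FPKM, −0.57), then POLE2 (15.1 to 10.7, −0.46), GINS1 (18.0 to 13.3, −0.41) and RFC5 (34.2 to 26.3, −0.37). CDT1 was highest (22.7 to 40.9 FPKM, 0.82), with POLE (0.46), CHAF1A (0.42) and LIG1 (0.36) next. With UNC1215, CHAF1B (7.29 to 4.88 FPKM, −0.49), RFC4 (−0.36), PRIM2 (−0.36) and RPA2 (−0.28) were lowest, and CDT1 (22.7 to 29.1, 0.34), LIG1 (0.26), MCM6 (0.20) and GINS2 (0.19) highest. The members varied less with UNC1215 than with any other compound of this table (standard deviation over members 0.17).

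Over the replicate 1 table without 2-PCPA, CDT1 was the most variable member, its highest library 3.99 times its lowest (GSK343 and BIX-01294). TYMS had a ratio of 2.89, ORC1 of 2.78 and GINS4 of 2.71. MCM3 was the steadiest at 1.35, from 68.3 FPKM (SAHA) to 92.2 (UNC1215), with MCM10 at 1.37 and POLE at 1.40. In the replicate 2 table DMSO was the highest of 4 libraries for 28 members, and the lowest was Rapamycin for 20 and 2-PCPA for 16. The matching counts over all genes are not given for these either.

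The GC content of the transcript moved with several of these differences. All 39 members had a value from the longest coding transcript in GENCODE v29, from 39.1% (RFC3) to 64.97% (POLD1), with a median of 48.5% beside 48.7% for all tested genes with a value. In GSK343 replicate 1 the Pearson correlation over the 39 genes between GC and the difference from DMSO was 0.79 (all genes with a value 0.51), and in VPA it was 0.79 (all genes 0.36). In Rapamycin replicate 1 it was 0.60 (0.25) and in UNC1215 0.49 (0.10). The 13 members of lowest GC had a median of −0.44 relative to all genes in GSK343 replicate 1 and the 13 of highest GC one of 0.23. In VPA these were −0.30 and 0.25, and in Rapamycin replicate 1 −0.24 and 0.14.

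In the other libraries of the replicate 1 table the correlation was 0.36 for GSK-J4, 0.17 for SAHA, 0.15 for BRD4770 and −0.23 for BIX-01294. In the replicate 2 table it was 0.21 for GSK343 replicate 2 (all genes 0.19) and −0.05 for Rapamycin replicate 2. In 2-PCPA it was 0.06 and −0.16 in the 2 replicates, and the low and high GC members had medians of −0.28 and −0.45 in replicate 1 and −0.18 and −0.24 in replicate 2. CDT1, at 64.9% GC, and POLD1 are at the top of the range, and PRIM1 (40.1%), GINS1 (41.4%) and PRIM2 (41.6%) near the bottom. The log2 differences of CDT1 and POLD1 from DMSO varied by library. They were 1.01 and 0.28 in GSK343 replicate 1, and 0.82 and 0.14 in VPA. In Rapamycin replicate 1 they were 0.85 and −0.16, and in GSK-J4 0.60 and −0.35. These genes share each library and, in the replicate 1 table, the same DMSO library. The part of GC content in the differences of CDT1, the MCM genes and primase was not tested.

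**Figure D5:**
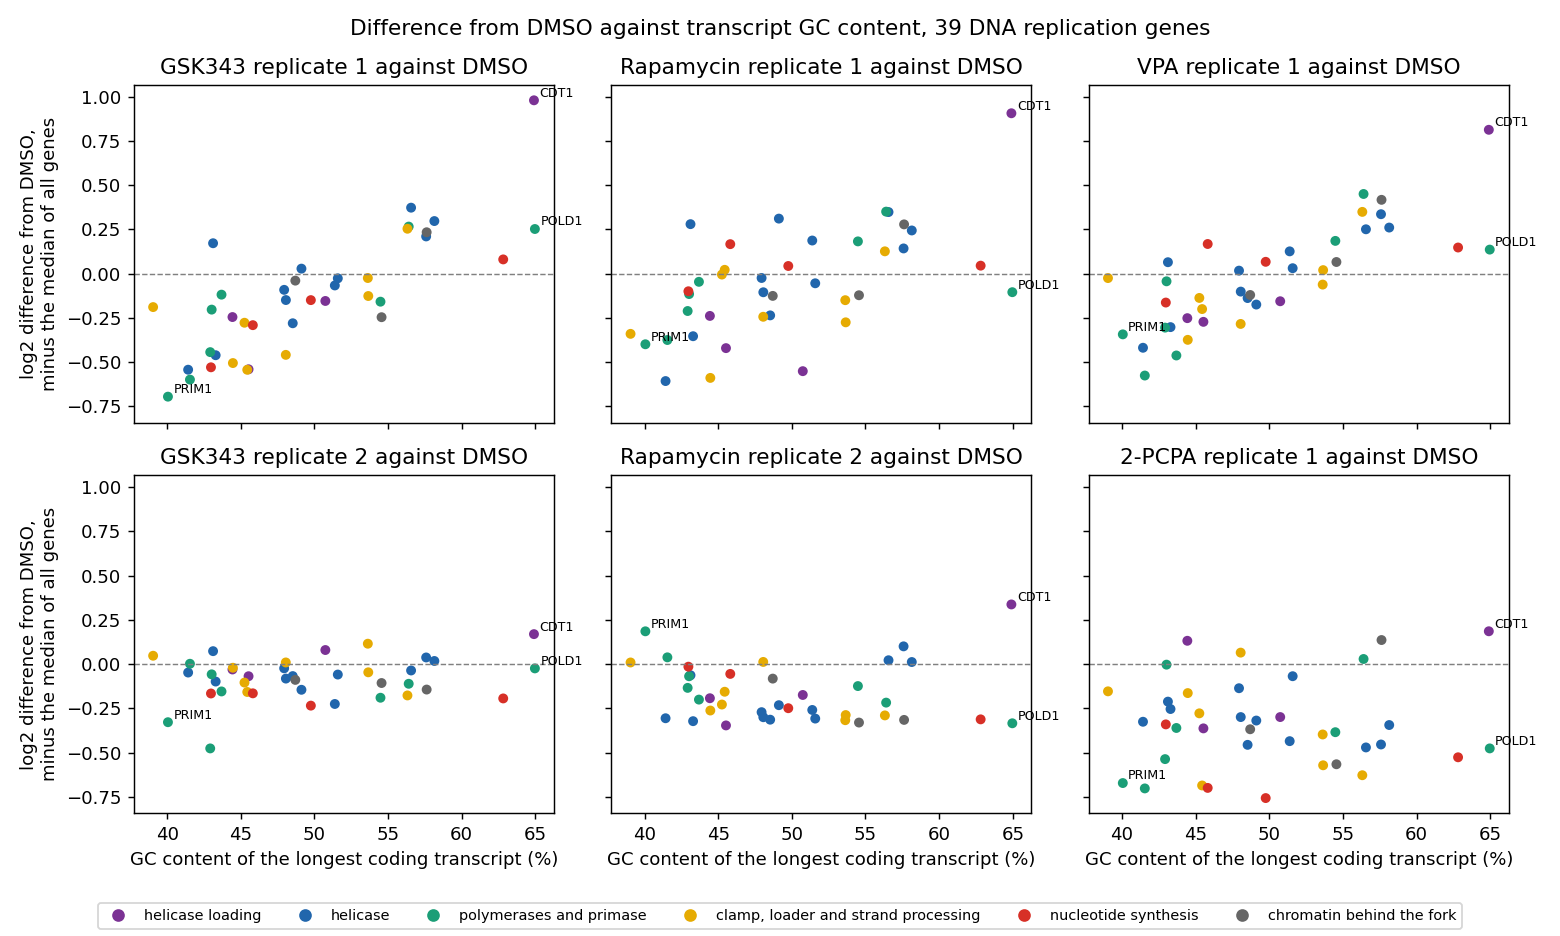
Scatter plots of the log2(FPKM + 1) difference from DMSO minus the median of all genes (y axis) against the GC content of the longest coding transcript in percent (x axis) for 39 genes, coloured by role, in 6 library comparisons. Points rise to the right in GSK343 replicate 1 and VPA (Pearson r 0.79 in each) and stay level in GSK343 replicate 2 (0.21), Rapamycin replicate 2 (−0.05) and 2-PCPA replicate 1 (0.06).

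Other genes of the pathway were read from 5 lists. Of 34 other replication factors, limma called 0 with 2-PCPA, 0 with GSK343 and 0 with Rapamycin, and the list medians were −0.10, −0.19 and −0.13 relative to all genes. The GSK343 value was −0.26 in replicate 1 and −0.02 in replicate 2. At an unadjusted p under 0.05 there were 3 lower with 2-PCPA (5.99% of all genes), 0 with GSK343, and 1 lower and 1 higher with Rapamycin (3.24% and 3.22% of all genes). CLSPN, the fork checkpoint mediator claspin, went from 15.6 to 7.04 and from 15.6 to 11.1 FPKM with 2-PCPA (−0.75 ± 0.22). POLD4, the smallest subunit of polymerase delta, went from 6.38 to 21.4 and from 11.9 to 25.3 FPKM with Rapamycin (1.32 ± 0.37, limma adjusted p = 0.611), above DMSO in both replicates. Beside the same DMSO library of replicate 1, POLD4 was also at 19.4 FPKM with GSK343, 19.1 with SAHA and 13.2 with VPA. In replicate 2, GSK343 and DMSO both had 11.9. Values of POLD4 with the other compounds are not given. TOPBP1, needed to start replication and to activate ATR, went from 33.2 to 18.3 and from 24.7 to 17.2 FPKM there (−0.66 ± 0.24).

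Of 31 other nucleotide synthesis genes, 0 were called with each of the 3 compounds; at an unadjusted p under 0.05 there were 2 lower with 2-PCPA (5.99% of all genes), 2 with GSK343 (0.92%) and 1 with Rapamycin (3.24%), and 0 higher. Low values with 2-PCPA included 2 enzymes of the thymidylate route. DUT, which makes dUMP, went from 68.4 to 28.9 and from 69.3 to 53.9 FPKM (−0.79 ± 0.29), and the thymidylate kinase DTYMK from 51.9 to 22.6 and from 63.7 to 52.5 FPKM (−0.72 ± 0.33). With Rapamycin, the mitochondrial folate enzyme MTHFD2 went from 168 to 76.3 and from 141 to 118 FPKM (−0.69 ± 0.28) and the purine enzyme PAICS from 90.8 to 54.5 and from 73.3 to 59.2 FPKM (−0.51 ± 0.25). SAMHD1, which degrades deoxynucleotides, was low with GSK343 (12.8 to 5.09 and 12.9 to 11.4 FPKM, −0.67 ± 0.27). In the SAHA library MTHFD2 stood at 57.6 FPKM against 168 in DMSO.

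The 26 genes of E2F and S phase entry had 0 called in each of the 3 comparisons. At an unadjusted p under 0.05 there were 2 lower with 2-PCPA (5.99% of all genes), 1 lower with GSK343 (0.92%), and 1 lower and 2 higher with Rapamycin (3.24% and 3.22%). The medians were −0.18, −0.04 and 0.00 relative to all genes, with −0.12 and −0.01 in the replicates of GSK343 and 0.06 and −0.11 in those of Rapamycin. CCNE2, a cyclin that drives S phase entry, went from 11.1 to 4.45 and from 9.79 to 6.08 FPKM with 2-PCPA (−0.88 ± 0.26). MYC went from 33.4 to 59.2 and from 25.4 to 63.4 FPKM with Rapamycin (1.05 ± 0.25, limma adjusted p = 0.564). SKP2, which marks cell cycle inhibitors for destruction, went from 37.2 to 20.9 and from 36.0 to 25.3 FPKM there (−0.65 ± 0.23). In the BIX-01294 library the CDK inhibitor CDKN1A stood at 244 FPKM against 57.9 in DMSO and MYC at 256 against 33.4. The ribonucleotide reductase subunit RRM2B, a p53 target, stood at 71.7 against 34.6 in that library, where RRM2 was at 152 against 211.

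Of 20 genes of replication stress and fork repair, 0 were called in each comparison, with 1 lower at an unadjusted p under 0.05 with 2-PCPA (5.99% of all genes; FANCD2, 14.3 to 8.81 and 14.8 to 11.2 FPKM, −0.51 ± 0.20) and 0 with the others. Their medians were −0.14, −0.25 and −0.11 relative to all genes with 2-PCPA, GSK343 and Rapamycin. In the replicates they were −0.19 and −0.08, −0.37 and −0.06, and −0.13 and −0.13.

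The 21 genes of G2 and mitosis were read for comparison, since they mark a later stage of the cell cycle. With 2-PCPA 0 were called and their median was −0.26 relative to all genes, beside −0.29 for the replication genes; 3 were lower at an unadjusted p under 0.05 (5.99% of all genes). With GSK343 and Rapamycin 0 were called, 0 were under that p, and the medians were −0.30 (−0.42 and −0.13 in the replicates) and −0.15 (−0.18 in each). In 2 of the 6 single libraries, BRD4770 and GSK-J4, the medians of the mitotic and the replication genes lay far apart. With BRD4770 all 21 mitotic genes were below the median of all genes, with a list median of −0.91, while the replication genes had −0.06. PLK1, a mitotic kinase, stood at 11.6 FPKM against 62.2 in DMSO, CDC20 at 51.3 against 218 and the cyclin CCNB1 at 40.1 against 128. With GSK-J4 the mitotic list had −1.0, again 21 of 21 below, and the replication genes −0.35. In the other 4 they were close: −0.26 for mitotic and −0.21 for replication genes with SAHA, −0.03 and −0.04 with VPA, 0.04 and −0.03 with UNC1215, and −0.24 and −0.34 with BIX-01294. These differences between lists come from 1 library each and were not tested.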

How the data were processed

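Poly(A) RNA was isolated with a NEBNext module and made into libraries with a Rubicon ThruPLEX kit, per the labels' protocols. The authors deposited FPKM values per gene. FastQC, cutadapt, TopHat2 and the hg19 build are named, per the submitters' processing notes, without versions. The FPKM program, its annotation and the strandedness were not given in the sources used here, so overlapping, antisense or near-identical genes are uncertain. Depth is unknown, and so is the counting error of each value.

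The replicate 1 table (28502 rows, 10 libraries) and the replicate 2 table (25209 rows, 4 libraries) share 22919 symbols. A row named unknown (1) was left out, and 0 columns were unused. Values were log2(FPKM + 1), so differences of low genes are understated. Genes averaging 1 FPKM or more in the 8 libraries of the replicated groups (12603) entered 1 fit in limma 3.58.1 (R 4.3.3). It held group and, as a block, the replicate number, and used trended eBayes. Degrees of freedom were 3 (residual) and 5.42 (prior), and p-values were adjusted by Benjamini-Hochberg over all genes at 0.05. The block was used because same-numbered libraries share a table. Their deviations from group means correlated at 0.710 to 0.784 over 6 pairs. A single value compared by permutation of 2 against 2 libraries, without the block, cannot go below p = 0.333. Permutation within tables allows fewer arrangements. Single libraries were described only, with 1 log2 as the threshold.

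The members, the lists of other genes and the alternatives were chosen with earlier results of these data known. Genes named were 10 members covering all roles, up to 5 members per direction with the largest mean difference among those of equal sign in the 2 replicates, up to 4 per direction for single libraries (at least 5 FPKM), and up to 4 genes of each other list, of which some are left out of the text for length and 1 is not reported here. Members named outside this rule, to complete a complex or a role, were picked with their values known. The fit was tested on simulated data for 2-PCPA against DMSO with 200 changed genes. It called 14.3% of changes of 1 log2, 72.8% of 2 and 92.4% of 3, and 0.0387% of unchanged genes. A count of 0 members called thus does not exclude changes of 1 log2 or less. Alternatives were other pseudocounts, filters, scalings and limma settings, and each library left out. Promoter windows came from RefSeq (GRCh38.p14), for 34 of 39 members, and GC content from GENCODE v29.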

Additional observations from a re-analysis of the deposited data

How the results depend on the processing

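The number of replication genes called by limma stayed at 0 in all comparisons with DMSO under every alternative run. Without the replicate block it was likewise 0 in all 6 comparisons, and the genes called among all genes were 1 with 2-PCPA (3 with the block), 0 with GSK343 (2) and 0 with Rapamycin (2). Between 2-PCPA and GSK343 it ran from 0 to 14 with single libraries left out, 14 (with 1844 of all genes) being the value without 2-PCPA replicate 2. The number of all genes called was unstable: 0 to 272 with 2-PCPA, 0 to 45 with GSK343, 0 to 66 with Rapamycin, 0 to 389 between 2-PCPA and Rapamycin (6 in the fit reported), 0 to 97 between GSK343 and Rapamycin (10) and 0 to 1844 between 2-PCPA and GSK343 (4).

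The member median relative to all genes stayed negative for 2-PCPA, GSK343 and Rapamycin against DMSO under every alternative. With no filter on low values it was −0.48 for 2-PCPA against DMSO and −0.37 for 2-PCPA against GSK343. Quantile normalization gave −0.11 for the latter and −0.47 for BIX-01294. With single libraries left out it ran from −0.39 to −0.18 for 2-PCPA, from −0.17 to −0.078 for GSK343, from −0.21 to −0.043 for Rapamycin and from −0.25 to −0.099 for 2-PCPA against GSK343. With 1 replicate of Rapamycin left, 24 (replicate 1) or 31 (replicate 2) members were below the median of all genes. In a single replicate 50% of all genes lie below it. The 20 members below it in both replicates stand beside 31.8% of all genes, so the counts are not alike. Between GSK343 and Rapamycin the member median lay on both sides of 0 (−0.098 to 0.11 over all settings), as it did for BRD4770 (−0.066 to 0.021) and UNC1215 (−0.045 to 0.0066).

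Small single-gene values changed sign in 16 cases. CDT1 with 2-PCPA was 0.022 after quantile normalization. The other cases left out 1 library. MCM2 with 2-PCPA ran from −0.85 to 0.055, the latter without 2-PCPA replicate 1. With GSK343, MCM2 ran from −0.054 to 0.41, MCM5 from −0.075 to 0.46 and MCM7 from −0.050 to 0.34, each lowest without GSK343 replicate 1, RFC2 from −0.040 (without DMSO replicate 2) to 0.18, and TK1 from −0.21 to 0.15 (without GSK343 replicate 2). With Rapamycin, MCM2 ran from −0.094 to 0.26, MCM5 from −0.046 to 0.33, MCM7 from −0.0080 to 0.16, RRM2 from −0.20 to 0.22 (−0.059 without DMSO replicate 2), PCNA from −0.37 to 0.055, TK1 from −0.39 to 0.035 and TYMS from −0.40 to 0.11, each lowest without Rapamycin replicate 1 and highest without replicate 2. RRM1 ran from −0.26 to 0.062 there, by the DMSO library left out. The cause was not tested. Unknown depth limits every value, and 2 libraries per group limit the tests.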
